A study of Homo sapiens with 6 samples.

Results

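The small nucleolar RNAs (snoRNAs) and small Cajal body RNAs (scaRNAs) of a leukaemia cell line were compared between ruxolitinib and DMSO. Members were the genes whose platform annotation gave exactly 1 symbol starting SNORD, SNORA or SCARNA, and a gene with more than 1 cluster of probes was represented by the cluster with the highest mean over the 6 arrays. There were 247 of them among 33616 genes measured, namely 152 box C/D snoRNAs (SNORD), 74 box H/ACA snoRNAs (SNORA) and 21 scaRNAs (SCARNA). The rule itself used no measured change, but it was chosen with earlier results of these data known.

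The cells were MHH-cALL4, an established human Ph-like acute lymphoblastic leukaemia line of B-cell precursors. The design held 3 arrays from cells given 1 µM ruxolitinib, an inhibitor of the kinases JAK1 and JAK2, for 12 h, and 3 arrays from cells given only the vehicle DMSO for the same 12 h. The titles of the ruxolitinib arrays name the line MHH-cALL5, whereas their cell line field and the treatment protocol name MHH-cALL4, and the field was followed. No other allele, agent or genotype was named for either group, both groups are a single line, and nothing states that the 3 arrays of a group came from separate cultures, so each p-value measures only the spread between these arrays.

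Box C/D snoRNAs guide ribose methylation of ribosomal RNA in complexes with FBL, NOP56, NOP58 and SNU13. Box H/ACA snoRNAs guide pseudouridylation in complexes with DKC1, NHP2, NOP10 and GAR1. The scaRNAs carry either or both kinds of box and guide the same modifications on spliceosomal RNAs in Cajal bodies. A few members, such as U3 (SNORD3) and U14 (SNORD14), are needed to cut ribosomal precursor RNA. In human cells most snoRNAs are trimmed out of introns of host genes, many of which encode ribosomal proteins.

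Each transcript cluster, the group of probes that reads a transcribed locus, has 1 log2 signal per array, on which a difference of 1 is a factor of 2. Signals of different clusters depend on their probes and are not compared as amounts of RNA. CISH, a target gene of JAK and STAT signalling, averaged 5.87 ± 0.12 in ruxolitinib arrays and 12.4 ± 0.26 in DMSO arrays (SD, n = 3 each). Of 11 B-cell precursor markers listed, 9 were measured, CRLF2 and DNTT among them, with mean signals of 11.8 to 19.6. Mean signals were 4.09 to 5.73 for 4 T-cell markers, 3.46 to 5.94 for 5 myeloid markers, 4.56 to 5.88 for 2 erythroid markers and 5.70 to 8.93 for 3 stromal markers. Since probes differ, these signals do not rank the markers by amount. The arrays measured bulk RNA, so fewer cells of a kind and less RNA per cell cannot be told apart.

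Signals of the small RNAs stood high on 1 array of each group. The mean over the 247 members was 6.98, 7.05 and 7.39 on ruxolitinib replicates 1, 2 and 3, against 7.43, 7.07 and 7.12 on DMSO replicates 1, 2 and 3. Ruxolitinib replicate 3 and DMSO replicate 1 were the high arrays, and 54 other small RNAs (spliceosomal, 7SK, 7SL, Y, vault and ribosomal RNAs, the long ribosomal RNAs included) ran the same way, with means of 11.9, 12.2 and 12.9 on the ruxolitinib arrays and 12.9, 12.3 and 12.3 on the DMSO arrays. Because both groups hold 1 such array, results are also given without these 2 arrays. They were picked for their high small RNA signal. The excess of the members on them over all genes therefore follows from that choice, is given as a description and tests nothing. The same choice can narrow the members' spread within a group. Calls of members in fits without either array are therefore descriptions too.

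The 3 classes followed these arrays to different extents, and no test was made between them. Ruxolitinib replicate 3 exceeded the mean of ruxolitinib replicates 1 and 2 by a median of 0.13 for box C/D snoRNAs, 0.52 for H/ACA snoRNAs and 0.70 for scaRNAs. DMSO replicate 1 exceeded the mean of the other DMSO arrays by medians of 0.23, 0.56 and 0.49 for the same classes. Over all genes these medians were -0.06 and -0.09, so the excess did not extend to the typical gene. The classes also differ in level, with 49.3% of box C/D snoRNAs, 86.5% of H/ACA snoRNAs and 85.7% of scaRNAs above the median level of all genes. Among members above it the medians were 0.42, 0.63 and 0.72 on ruxolitinib replicate 3 and 0.43, 0.61 and 0.51 on DMSO replicate 1, in the same order of classes, and so lay closer together. Both excesses were above 0 for 142 members (57.5%), against 19.2% of all genes, and both were above 0.5 for 64 members (25.9%), against 1.84% of all genes. By class, both were above 0.5 for 24 of 152 box C/D snoRNAs (15.8%), 31 of 74 H/ACA snoRNAs (41.9%) and 9 of 21 scaRNAs (42.9%). Above the median level these were 22 of 75 (29.3%), 31 of 64 (48.4%) and 9 of 18. Across the 247 members the excess on one array correlated with that on the other (Pearson r = 0.577, against 0.274 over all genes), where the members share the arrays.

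**Figure D1:**
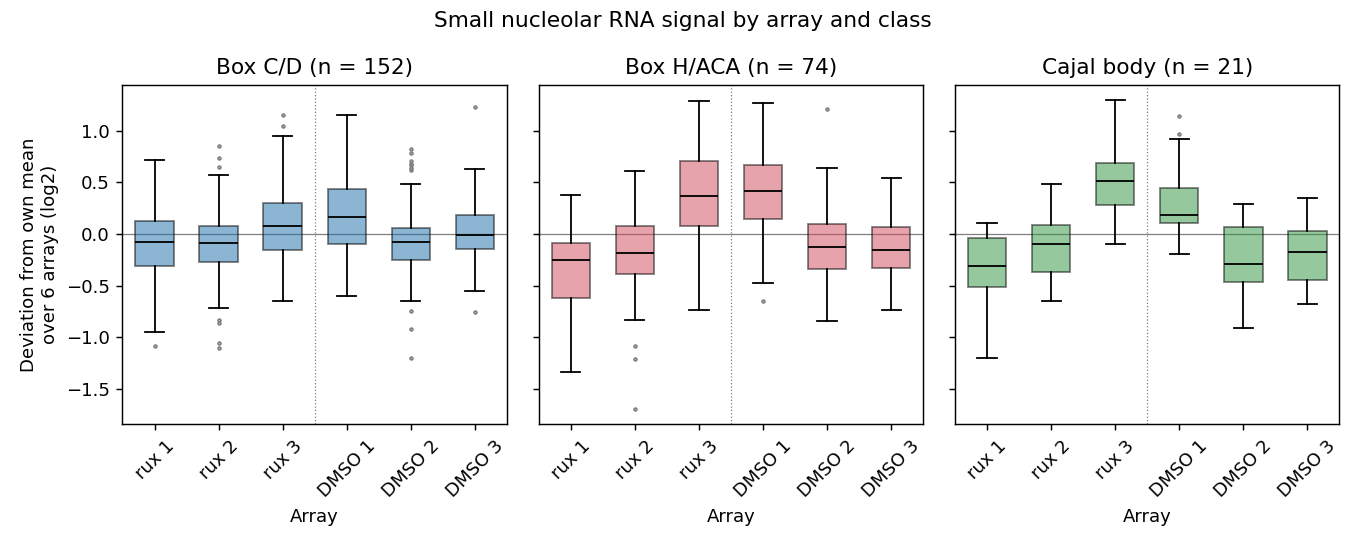
Deviation of each small nucleolar or Cajal body RNA from its own mean over the 6 arrays (y axis, log2) on each array (x axis; rux is ruxolitinib), by class. Boxes span the quartiles with the median as a line, whiskers reach 1.5 interquartile ranges and points lie beyond them; ruxolitinib replicate 3 and DMSO replicate 1 stand above the others, more so for box H/ACA and Cajal body RNAs than for box C/D RNAs.

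**Figure D2:**
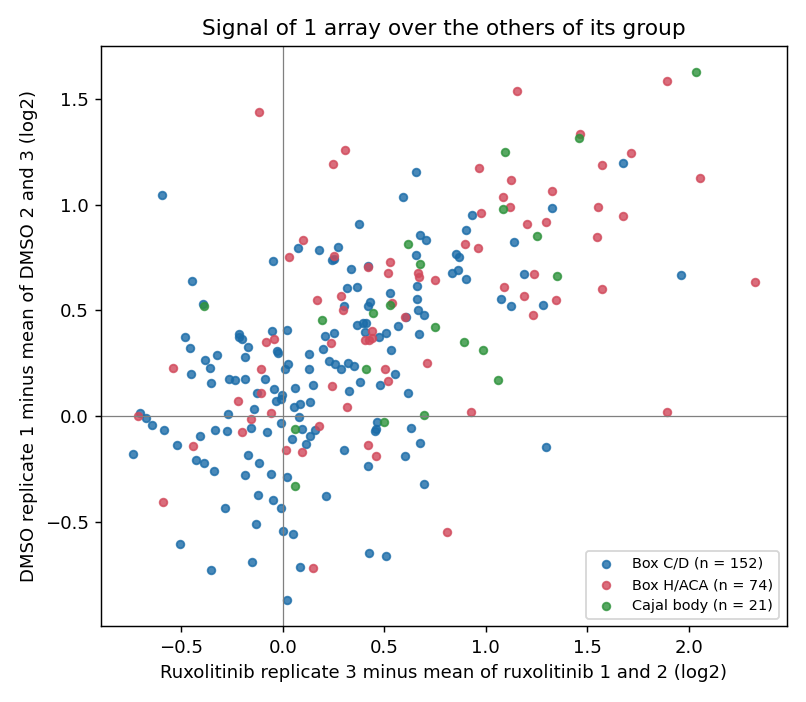
Signal of ruxolitinib replicate 3 over the mean of ruxolitinib replicates 1 and 2 (x axis, log2) against the signal of DMSO replicate 1 over the mean of DMSO replicates 2 and 3 (y axis, log2), 1 point for each of the 247 members coloured by class. Most points lie to the upper right, where both excesses are above 0 (142 of 247). The 2 arrays were picked for their high small RNA signal.

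RNA length went with class and with this excess. RefSeq gave a length for the 174 members matched by Entrez identifier, with medians of 77 bases for box C/D snoRNAs (n = 118), 134 for H/ACA snoRNAs (n = 39) and 144 for scaRNAs (n = 17). Across these 174 members Spearman's rho between length and the excess was 0.449 on ruxolitinib replicate 3 and 0.427 on DMSO replicate 1, and rho between mean level and the excess was 0.524 and 0.598. Within the 34 H/ACA snoRNAs above the median level of all genes, rho with length was -0.282 and -0.219, and within the 58 such box C/D snoRNAs it was 0.265 and 0.276. The part of length, level or RNA quality in the excess was not tested.

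Few members differed between ruxolitinib and DMSO. At an adjusted p under 0.05 (limma, Benjamini-Hochberg over all 33616 genes), 2 of 247 members (0.81%) were lower with ruxolitinib, against 1.04% of all genes. None was higher, against 0.101% of all genes. At an unadjusted p under 0.05, 13 members were lower (5.26%, against 6.85% of all genes) and 8 were higher (3.24%, against 2.68%). All 3 ruxolitinib arrays lay below all 3 DMSO arrays for 12 members (4.86%, against 9.03% of all genes), and above them for 11 members (4.45%, against 5.14%). These shares were near or below those of all genes.

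The median log2 change was -0.07 for box C/D snoRNAs, -0.09 for H/ACA snoRNAs and -0.01 for scaRNAs, against -0.02 for all genes and -0.18 for the 54 other small RNAs. The change was below 0 for 92 of 152 box C/D snoRNAs, 47 of 74 H/ACA snoRNAs and 11 of 21 scaRNAs, against 53.4% of all genes. Leaving out 1 array moved the H/ACA and scaRNA medians past 0. The H/ACA median was -0.28 without ruxolitinib replicate 3, 0.08 without ruxolitinib replicate 1 and 0.10 without DMSO replicate 1. The scaRNA median was -0.12 without ruxolitinib replicate 3, 0.23 without ruxolitinib replicate 1 and 0.15 without DMSO replicate 1. The box C/D median ran between -0.12 without DMSO replicate 2 and 0.00 without DMSO replicate 1. Among the 75 box C/D snoRNAs above the median level of all genes, 59 were below 0 (78.7%) with a median of -0.16, against 60.2% and -0.07 for all genes above that level. Both called members were box C/D snoRNAs, and no test was made of a difference between the classes. The median standard error of a member's change was 0.216 for box C/D snoRNAs, 0.267 for H/ACA snoRNAs and 0.270 for scaRNAs, against 0.200 for all genes.

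**Figure D3:**
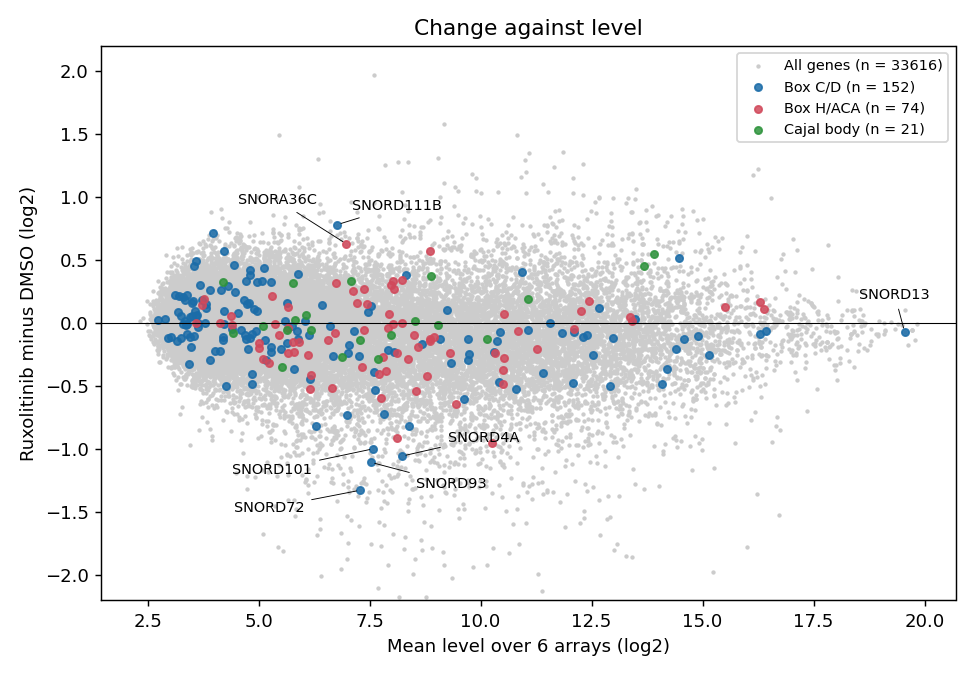
Log2 change, ruxolitinib minus DMSO (y axis), against mean level over the 6 arrays (x axis, log2) for all 33616 genes in grey and the 247 members coloured by class. The y axis ends at 2.2 in both directions and 31 genes lie outside it; the members lie within the grey cloud, with SNORD72 lowest at -1.33 and SNORD111B highest at 0.78.

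SNORD101 had the smallest standard error among the 6 members with the lowest changes. It lies in the ribosomal protein gene RPS12. Its level was 7.20, 7.01 and 7.03 in ruxolitinib arrays, against 8.03, 8.25 and 7.96 in DMSO arrays. The groups did not overlap, and neither array with high small RNA signal stood apart for this RNA. The log2 change was -0.998 ± 0.175 (SE, n = 3 each; adjusted p = 0.02, limma). Without the 2 arrays the change was again -0.998, with an adjusted p of 0.0711 on 2 arrays a group. The call was also lost without DMSO replicate 2 (adjusted p = 0.119), ruxolitinib replicate 2 (0.127) or ruxolitinib replicate 3 (0.0618).

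SNORD72 had the largest fall of the 247 members. It is a box C/D guide for the large ribosomal subunit's RNA and lies in the ribosomal protein gene RPL37. Its level was 6.78, 6.45 and 6.64 in ruxolitinib arrays, against 7.37, 7.96 and 8.51 in DMSO arrays. The ruxolitinib values lay close together, while the DMSO values spread over more than 1 log2 unit without reaching them. The log2 change was -1.33 ± 0.26 (SE, n = 3 each; adjusted p = 0.0359, limma), and -1.62 without the 2 arrays (adjusted p = 0.0110). Only without DMSO replicate 1 did the call outlast the loss of a single array (adjusted p = 0.0112). Leaving out DMSO replicate 2 gave an adjusted p of 0.161 and leaving out DMSO replicate 3 gave 0.0855. Leaving out ruxolitinib replicate 1, 2 or 3 gave 0.0731, 0.209 and 0.0780 in that order.

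SNORD93 and SNORD4A, box C/D guides for the small ribosomal subunit's RNA, did not overlap between the groups and missed the threshold. SNORD93 was at 6.71, 7.003 and 7.24 in ruxolitinib arrays, against 8.69, 8.16 and 7.42 in DMSO arrays (log2 change -1.11 ± 0.29, adjusted p = 0.124, limma). SNORD4A was at 7.98, 7.14 and 8.02 in ruxolitinib arrays, against 8.73, 9.06 and 8.51 in DMSO arrays (log2 change -1.06 ± 0.25, adjusted p = 0.0916, limma). SNORD93 passed the threshold without DMSO replicate 3, with a change of -1.44. A second, dimmer SNORD4A cluster changed by -0.34 and did not pass either.

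SNORA26 and SNORA38B were the lowest H/ACA members, and for both the call turned on ruxolitinib replicate 3. SNORA38B was at 9.28, 9.18 and 10.9 in ruxolitinib arrays, against 11.4, 10.6 and 10.3 in DMSO arrays. SNORA26 was at 7.05, 6.91 and 9.03 in ruxolitinib arrays, against 9.33, 8.20 and 8.20 in DMSO arrays. In each case ruxolitinib replicate 3 lay inside the DMSO range and the other ruxolitinib arrays below it. With all arrays the changes were -0.95 ± 0.42 for SNORA38B (adjusted p = 0.5, limma) and -0.91 ± 0.49 for SNORA26 (adjusted p = 0.637). Without ruxolitinib replicate 3 they were -1.51 and -1.60, and both passed the threshold.

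Without ruxolitinib replicate 3 and DMSO replicate 1 together, 3 of 247 members (1.21%) were lower, SNORD72, SNORA26 (-1.22, adjusted p = 0.0206, limma) and SNORA38B (-1.19, adjusted p = 0.0286), against 0.872% of all genes. None was higher, against 0.0773% of all genes. The omitted arrays were picked by the kind of signal compared here, so these calls are given as a description. The class medians of the change were then -0.04 for box C/D snoRNAs, -0.10 for H/ACA snoRNAs and -0.06 for scaRNAs, against -0.03 for all genes.

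**Figure D4:**
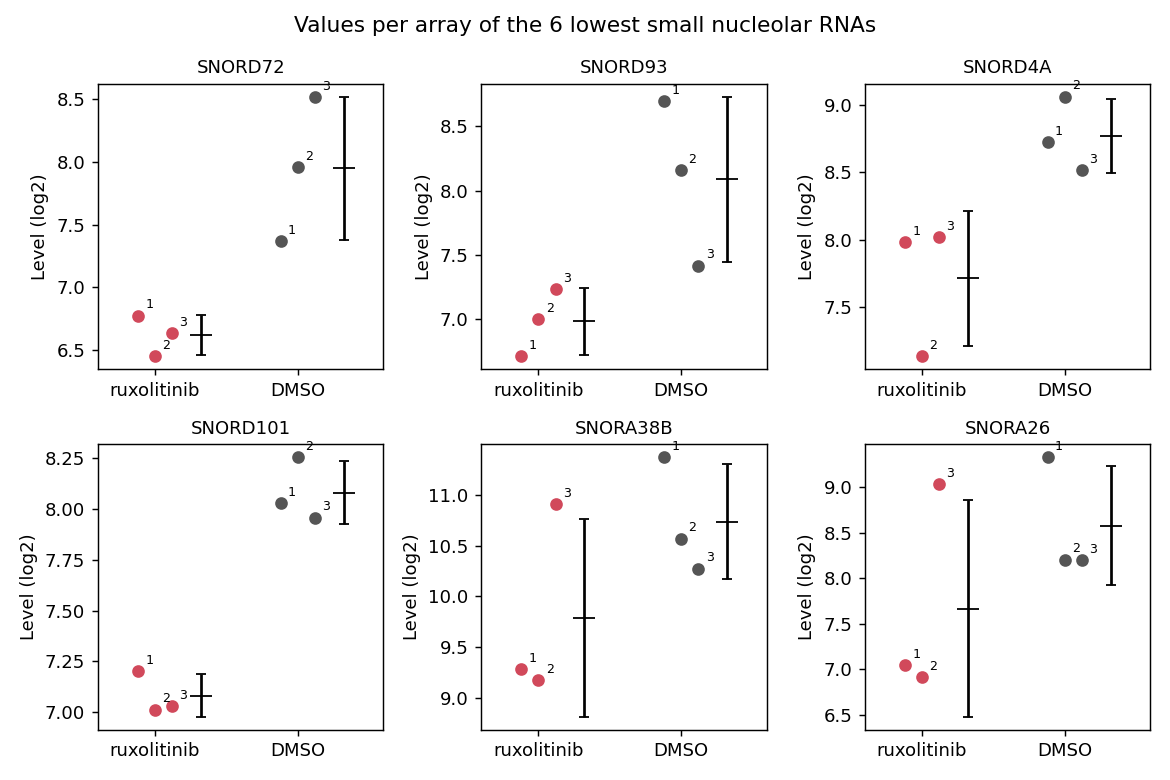
Levels on each array (y axis, log2, a scale of its own in each panel that does not start at 0) of the 6 members with the lowest changes, ruxolitinib left and DMSO right, with the replicate number beside each point and the mean and SD as a bar. SNORD72, SNORD93, SNORD4A and SNORD101 do not overlap between the groups, whereas ruxolitinib replicate 3 of SNORA38B and SNORA26 lies among the DMSO points.

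The remaining low members above the median level of all genes were SNORD73B (-0.82 ± 0.33) and SNORD65 (-0.82 ± 0.39), neither past the threshold. The highest changes above that level were SNORD111B (0.78 ± 0.27, adjusted p = 0.315, limma), SNORA36C (0.63 ± 0.20, adjusted p = 0.260), SNORA51, SCARNA7, SNORD41, SCARNA9, SNORD111 and SNORD114-19, the last at 0.39. SNORA36C, SNORD111 and SNORD114-19 did not overlap between the groups. SNORD111B and SNORD111 lie in SF3B3, a splicing factor gene that changed by -0.28 (adjusted p = 0.759), and SNORD111B was at 6.99, 6.79 and 7.72 in ruxolitinib arrays, against 6.84, 6.03 and 6.29 in DMSO arrays. SNORD111 averaged 11.1 ± 0.19 in ruxolitinib arrays and 10.7 ± 0.20 in DMSO arrays. A dimmer cluster with the symbol SNORD111, whose identifier lies on another chromosome, ran the other way at -0.73, and neither passed the threshold.

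Members that take part in cutting or acetylating ribosomal precursor RNA did not pass the threshold. U3 had 4 clusters among the members, of nearly the same sequence family (SNORD3A, SNORD3C, SNORD3D and SNORD3B-2), which cannot be taken as separate measurements. SNORD3A was at 13.3, 14.01 and 14.3 in ruxolitinib arrays, against 14.8, 13.98 and 14.2 in DMSO arrays (log2 change -0.48 ± 0.29, adjusted p = 0.699, limma), and the groups overlapped. SNORD3C and SNORD3D changed by -0.50 and -0.48 and SNORD3B-2 by 0.12. A cluster with the symbols SNORD3B-1 and SNORD3B-2 together, not among the members, changed by -0.39 ± 0.33. U14 was represented by SNORD14A (-0.23 ± 0.18) and SNORD14E (-0.32 ± 0.46). SNORD14E ranged over 8.39 to 10.48 in ruxolitinib arrays, against 8.93 to 9.94 in DMSO arrays. SNORD13 (U13), which guides acetylation of the small subunit's RNA, had the highest signal of all members. It was at 19.5, 19.4 and 19.6 in ruxolitinib arrays, against 19.7, 19.5 and 19.5 in DMSO arrays, a difference within the spread between arrays. These signals lie close to the highest of any gene on the arrays. Whether a change in RNA would be read in full at such signals was not tested.

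None of the brightest snoRNAs passed the threshold. Among the 6 brightest box C/D snoRNAs (SNORD13, SNORD82, SNORD13P3, SNORD105B, SNORD104 and SNORD59A) changes ran between -0.26 and -0.06. SNORD13P3 is by its symbol a pseudogene of SNORD13, and whether its probes also read SNORD13 was not tested. Among the 6 brightest H/ACA snoRNAs (SNORA22, SNORA63, SNORA47, SNORA79, SNORA8 and SNORA38) they ran between 0.02 and 0.18. No adjusted p in either set was under 0.84 (limma). The 95% interval of SNORD13 reached 0.38 either side of its change of -0.07, and that of SNORA38 reached 0.83 either side of 0.18. The interval of SNORD13 does not allow for its signal lying near the top of the range.

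The scaRNAs, which guide modification of spliceosomal RNAs, included no member at an unadjusted p under 0.05. SCARNA7 was at 13.4, 14.1 and 15.1 in ruxolitinib arrays, against 14.1, 13.2 and 13.6 in DMSO arrays (log2 change 0.55 ± 0.37, adjusted p = 0.758, limma). SCARNA9 was at 13.4, 13.7 and 14.6 in ruxolitinib arrays, against 14.1, 13.0 and 13.2 in DMSO arrays (0.45 ± 0.34, adjusted p = 0.799). Ruxolitinib replicate 3 held the highest value of both, and without that array alone the changes were 0.10 for SCARNA7 and 0.09 for SCARNA9. The changes were 0.32 and 0.42 without the 2 arrays, and reached 0.94 for SCARNA7 without ruxolitinib replicate 1 and 0.78 for SCARNA9 without DMSO replicate 1. SCARNA2 (-0.01 ± 0.19), SCARNA10 (-0.05 ± 0.18), SCARNA17 (-0.02 ± 0.19), SCARNA5 (-0.13 ± 0.27), SCARNA6 (0.34 ± 0.27), SCARNA8 (-0.13 ± 0.55) and SCARNA22 (0.20 ± 0.29) were each within 1.5 standard errors of 0.

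The imprinted tandem families contributed many members with low signal. SNORD113 and SNORD114 on chromosome 14 had 39 members with a median level of 4.195, and 4 of them were above the median level of all genes (5.25). SNORD115 on chromosome 15 had 22 members with a median level of 3.61, 1 of them above it, and SNORD116 had 2, at 6.42 and 9.24. SNORD116-2, the brighter, was at 8.65, 9.50 and 9.73 in ruxolitinib arrays, against 9.96, 8.32 and 9.29 in DMSO arrays, and the groups overlapped. No member of these families passed the threshold. Leaving them out, 89 box C/D snoRNAs remained with a median change of -0.12.

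Not every symbol sat where its gene lies. The cluster identifier's chromosome matched that of the RefSeq gene for 99.86% of 25037 clusters over the whole table, but 51 members carried a symbol without an Entrez match on a chromosome other than that of the gene so named (25 H/ACA, 22 box C/D and 4 scaRNAs). SNORA63, SNORA8, SNORA51, SNORA62, SNORD65 and SCARNA17 are such cases, and whether their probes read copies elsewhere in the genome was not tested. SNORA63, SNORA8, SNORA51, SNORD65 and SCARNA17 also stand on clusters shared with EIF4A2, TAF1D, NOP56, SNHG29 and SNHG22. In that order these clusters changed by -0.46, -0.49, -0.55, -0.31 and 0.13. The member clusters of SNORA63, SNORA8, SNORA51 and SNORD65 changed by 0.17, 0.05, 0.58 and -0.82. Both called members were matched by Entrez identifier. Among the 174 matched members the median change was -0.07, and among the other 73 it was -0.04.

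For most matched members the gene that spans them was known. Of 174 members, 167 lay within another gene and 113 had that gene measured, 39 of them in MEG8. The other 74 lay in 63 genes, whose strand was not used. Across these 74 pairs the change of the small RNA and that of its spanning gene were weakly correlated (Pearson r = 0.0705, Spearman's rho = 0.0258), where pairs share arrays and some share a spanning gene. Without the 2 arrays with high small RNA signal both coefficients were 0.182. With ruxolitinib 3 of the 63 spanning genes were lower at an adjusted p under 0.05 (limma), where 1.04% of all genes were and 2.02% of genes above the median level. URB1, a ribosome biogenesis factor, changed by -1.15 (adjusted p = 0.00840) and its SNORA80A by -0.54. EIF4G1, a translation initiation factor, changed by -1.03 (adjusted p = 0.0196) and its SNORD66 by -0.23. MRPL3, a mitochondrial ribosomal protein gene, changed by -0.97 (adjusted p = 0.0273) and its SNORA58 by 0.00. None of these 3 small RNAs passed the threshold.

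Several genes held more than 1 member, and differences between members of a gene were not tested. RPS12 averaged 17.8 in ruxolitinib arrays and 17.96 in DMSO arrays (log2 change -0.18, adjusted p = 0.870, limma) and holds SNORD101 (-0.998), SNORA33 (-0.64 ± 0.37) and SNORD100 (-0.07 ± 0.30). RPL37 changed by -0.39 and holds SNORD72. NOP58, itself a box C/D core protein gene, changed by -0.21 and holds SNORD11B (-0.72 ± 0.25) and SNORD11 (-0.60 ± 0.33). NCL, the nucleolin gene, changed by -0.68 and holds SNORD20 (-0.46 ± 0.21), SNORA75 (-0.24 ± 0.28) and SNORD82 (-0.06 ± 0.30). The change of SNORD101 minus that of RPS12 was -0.820, and that of SNORD72 minus that of RPL37 was -0.941, given as a description because both RNAs were picked for their own change.

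**Figure D5:**
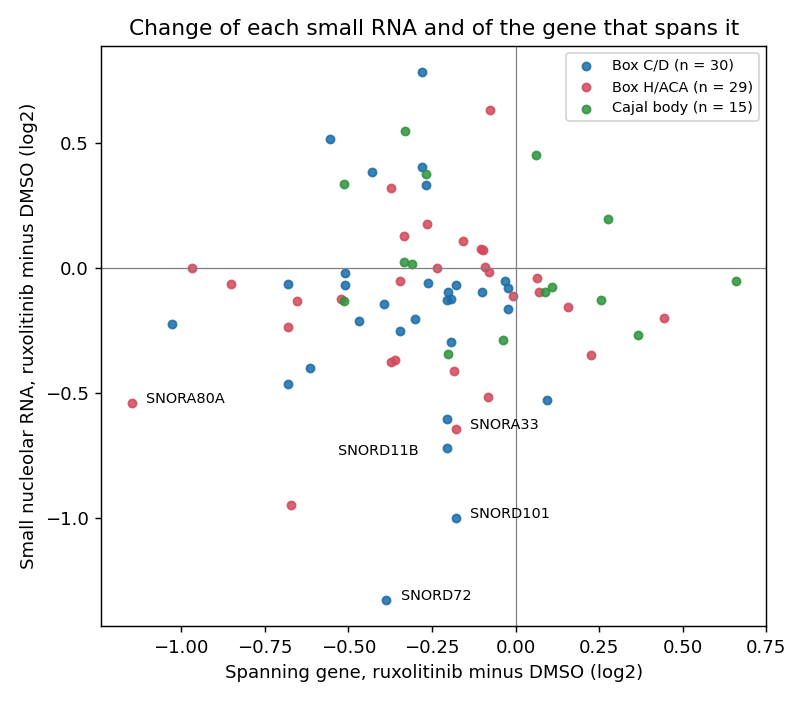
Log2 change, ruxolitinib minus DMSO, of each small RNA (y axis) against that of the gene that spans it (x axis) for 74 pairs outside MEG8, coloured by class of the small RNA. Pearson's r is 0.0705, and SNORD72 and SNORD101 lie far below 0 beside spanning genes at -0.39 and -0.18.

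Clusters that carry several symbols, host and snoRNAs together, were kept apart from the members. There were 109 of them with a snoRNA or scaRNA symbol, 101 of them with different values. They hold 198 such symbols, 138 of which were not among the 247 members, and probes of the host's exons and of the small RNAs cannot be told apart in them. A limma fit over all 37295 clusters with at least 1 symbol, chosen after seeing the data, called 2 of the 101 lower and none higher, where it called 0.906% of all clusters lower and 0.0831% higher. Many of the 101 were bright, and in the fit over genes 2.02% of those above the median level were called lower. The cluster of SNHG16, a host gene, with SNORD1A and SNORD1C was at 11.3, 10.6 and 10.6 in ruxolitinib arrays, against 12.3, 12.2 and 12.4 in DMSO arrays (log2 change -1.49 ± 0.22, adjusted p = 0.00956), and it passed in 4 of 6 fits without 1 array. The cluster of WDR43, a ribosome biogenesis gene, with SNORD53 was at 12.4, 11.9 and 12.4 in ruxolitinib arrays, against 13.3, 13.6 and 13.3 in DMSO arrays (-1.16 ± 0.20, adjusted p = 0.0227), and it passed in 2 of 6.

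The starts of the spanning genes are shown because many snoRNA hosts begin with a pyrimidine run, the 5′ terminal oligopyrimidine motif, which couples their translation to growth signals. RefSeq start windows (GRCh38.p14) were at hand for 4 of the genes that span the lowest members. None was at hand for RPL37, which holds SNORD72, or for RPL23A, which holds SNORD4A. Each line gives 50 bases before the annotated start and the 50 bases from it on, 5′ to 3′ on the gene's strand. Capitals mark a C at the start followed by at least 4 more C or T bases, a run that 4.07% of 35116 annotated start windows hold. RPS12 (chr6:132814519-132814618, plus strand; holds SNORD101), SNHG26 (chr7:22854190-22854289, plus strand; SNORD93), DANCR (chr4:52712344-52712443, plus strand; SNORA26) and NOL11 (chr17:67717886-67717985, plus strand; SNORA38B) read as follows.
RPS12: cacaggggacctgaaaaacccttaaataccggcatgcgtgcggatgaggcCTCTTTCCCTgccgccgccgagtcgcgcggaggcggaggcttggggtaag
SNHG26: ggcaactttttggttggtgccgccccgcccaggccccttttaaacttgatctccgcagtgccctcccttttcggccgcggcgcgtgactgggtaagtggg
DANCR: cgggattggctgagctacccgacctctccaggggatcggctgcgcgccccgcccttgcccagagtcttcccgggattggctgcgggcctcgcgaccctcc
NOL11: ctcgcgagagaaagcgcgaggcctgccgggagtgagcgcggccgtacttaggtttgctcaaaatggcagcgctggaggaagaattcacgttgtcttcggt
The RPS12 window held such a run, of 10 bases, and the windows of SNHG26, DANCR and NOL11 did not hold it at the annotated start. Nor did the windows at hand for AAK1, CEP295 and TNPO2, which span members with the highest changes. A link between the run and the changes was not tested.

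Most protein partners of the snoRNAs had a change below 0, and 2 of them passed the threshold. Of 25 genes listed, 23 were measured, with a median log2 change of -0.43 against -0.02 for all genes, and 19 were below 0, against 53.4% of all genes. NOLC1 and RRP9 were lower at an adjusted p under 0.05 (limma), where 1.04% of all genes were, and none was higher, against 0.101%. All 23 lay above the median level of all genes, and of the genes above it 2.02% were called lower and 60.2% were below 0, with a median change of -0.07. NOLC1, which binds both snoRNA classes in the nucleolus and Cajal bodies, was at 11.4, 11.3 and 11.1 in ruxolitinib arrays, against 12.3, 12.3 and 12.0 in DMSO arrays (log2 change -0.93 ± 0.18, adjusted p = 0.0376). RRP9, the U3-specific protein, was at 7.37, 7.30 and 7.29 in ruxolitinib arrays, against 8.35, 8.28 and 7.95 in DMSO arrays (log2 change -0.87 ± 0.18, adjusted p = 0.0439). For both genes every ruxolitinib array lay below every DMSO array.

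Core proteins and assembly factors of the list did not pass the threshold beyond these 2 genes. Among box C/D core proteins FBL, the methyltransferase, changed by -0.43 ± 0.17, SNU13 by -0.39 ± 0.22 and NOP58 by -0.21 ± 0.24. Among H/ACA core proteins NHP2 changed by -0.73 ± 0.22, GAR1 by -0.72 ± 0.19 and NOP10 by -0.51 ± 0.24. The assembly factors RUVBL1 (-0.81 ± 0.19, adjusted p = 0.0878, limma) and NUFIP1 (-0.76 ± 0.18, adjusted p = 0.0824) came closest. Without the 2 arrays the list's median was -0.59 and no gene of it was past the threshold. NOLC1 lost its call without any 1 of the 6 arrays (adjusted p up to 0.183), and RRP9 kept its call only without DMSO replicate 3 (adjusted p up to 0.201 otherwise).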

How the data were processed

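Total RNA of MHH-cALL4 cells was hybridised to 6 Affymetrix arrays. The deposited table gives a log2 value for each transcript cluster on each array, between 1.99 and 19.9. The submitters' processing notes name RMA, Transcriptome Analysis Console and Affymetrix Expression Console, with no version or role. The array's genome build is not given in the sources used here. Of 135750 clusters, 36176 had exactly 1 symbol and 1119 had several.

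Genes (33616, 1 cluster each) were compared with limma 3.58.1 in R 4.3.3 (lmFit, eBayes, no covariate, two-sided, Benjamini-Hochberg threshold 0.05). The fit was also run on simulated data with noise drawn separately for each gene. Those data held no array signal shared by the small RNAs, so they do not cover that setting. RefSeq GRCh38.p14 gave lengths, spanning genes and start windows, and cluster identifiers gave chromosomes. Members, gene lists and alternatives were chosen with earlier results of these data known. Named were members past the threshold and the 8 highest and 8 lowest changes above the median level. So were the 6 brightest SNORD and SNORA, the 4 brightest SCARNA, and the members of a set list. That list held processing RNAs and other well-known members, scaRNAs among them, and 13 of its 22 were measured. Others are named for their spanning gene or family. No detection calls were used, and array number limits the precision.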

Additional observations from a re-analysis of the deposited data

How the results depend on the processing

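The count of 2 members called lower became 0 after quantile normalization, and 0 to 2 when any 1 array was left out. Among the fits without 1 array, SNORD72 and SNORD101 were called together only without DMSO replicate 1. SNORD101 and SNORD93 were called without DMSO replicate 3, and SNORA26 and SNORA38B without ruxolitinib replicate 3. The count of members called higher became 1 (SNORD111B, 0.93) with the other small RNAs' mean as a covariate. The 2 protein partner genes called lower became 1 with a mean-dependent prior and robust spread, 0 after quantile normalization, 5 with that covariate, 0 without ruxolitinib replicate 3 and DMSO replicate 1, 0 to 1 without any 1 array, and 4 at an adjusted p under 0.1. The median change of box C/D snoRNAs was -0.16 among genes above the median level. Over all genes, 384 calls became 187 after quantile normalization, 651 with the covariate, and 101 to 291 without any 1 array. Array weights added SNORD4A (-1.18). No result changed sign while called, and the causes of these moves were not tested. With the replicate number as a block, 0 members and 0 partner genes were called (122 over all genes). After each gene's group mean was subtracted, same-numbered arrays correlated at -0.211, -0.0847 and -0.396. These values gave no sign of pairs, but with 3 arrays a group they cannot decide whether the numbers pair the arrays.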

Other observations

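The cluster shared by TMEM107 and SNORD118 (U8, needed to process the large subunit's RNA) ran the other way. It was at 11.0, 10.9 and 10.4 in ruxolitinib arrays, against 9.21, 10.1 and 10.3 in DMSO arrays, with no overlap (log2 change 0.93 ± 0.28, adjusted p = 0.217, limma). Without DMSO replicate 1, the lowest array, the change was 0.60. The clusters of the snoRNA hosts GAS5 (0.23 ± 0.25) and SNHG1 (-0.10 ± 0.19) did not pass the threshold. Nor did those of DKC1 (-0.72 ± 0.21, adjusted p = 0.196) and NOP56 (-0.55 ± 0.22, adjusted p = 0.433), core proteins that were measured only on such clusters.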
